A study of Drosophila melanogaster with 2 samples.

Results

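The genes described here encode the nuclear subunits of the mitochondrial respiratory chain and of ATP synthase in Drosophila melanogaster. Members were chosen by symbol: every protein-coding gene of the dm6 annotation whose symbol starts with ND- (complex I), Sdh (complex II), UQCR- (complex III), COX (complex IV) or ATPsyn (complex V). The rule found 88 of 13945 protein-coding genes on the 6 main chromosome arms, 40 in complex I, 8 in complex II, 9 in complex III, 16 in complex IV and 15 in complex V. It used no measured value. By its prefix the rule also took Sdhaf3, whose product helps to assemble complex II without being part of it. It missed subunits with other names, which are described after the members.

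The measurement was chromatin immunoprecipitation followed by sequencing (ChIP-seq) of Spalt major (Salm), a zinc-finger transcription factor of the embryonic head, tracheae, oenocytes and sensory organs. The 1 group held 2 biological replicates of whole embryos aged 0 to 16 h, both from a transgenic line that stably carries salm with GFP at its C-terminal end, and the GFP tag was precipitated with an anti-GFP antibody. Every value is thus an average over all tissues and many stages of the embryo, and untagged embryos were not analysed here. Binding was read from 4 peak lists: 3421 "thresholded" peaks that passed the authors' filter by irreproducible discovery rate (IDR), which asks whether a peak ranks alike in both replicates, 30000 peaks called on both replicates pooled, and 30000 for each replicate alone. The thresholded peaks were the strongest 3421 of the pooled list, so that list equals a cut on pooled signal. Not every peak in it ranked alike in both replicates. Its signal ran from 141 to 2154 in the peak caller's own units, while pooled peaks went down to 31.3. Signal scales differ between lists, so across lists only ranks were compared. No source used here states read totals, and sequencing depth is therefore unknown.

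The respiratory chain passes electrons from NADH (through complex I) and from succinate (through complex II) to ubiquinone, on through complex III and cytochrome c to complex IV, which reduces oxygen. Complexes I, III and IV pump protons out of the mitochondrial matrix, and ATP synthase, complex V, uses their return to make ATP. Most subunits are encoded in the nucleus and a core set in mitochondrial DNA. The annotation holds 13 protein-coding genes on the mitochondrial genome, and none of the 4 lists holds a peak outside the 6 arms, so those genes are not described here. Many respiratory genes of Drosophila also have a duplicate whose symbol ends in L, and several such duplicates are known to be expressed mainly in the male germ line.

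Most of these genes had a pooled Salm-GFP summit, while their share with a thresholded one lay near that of all protein-coding genes. Each gene was given a window that starts 2 kb before the gene and runs to its last base, and 16 of the 88 members had a thresholded summit in it (18.2%, exact 95% binomial interval 10.8 to 27.8), against 21.4% of all protein-coding genes. A pooled summit of any strength lay in the windows of 62 members (70.5%, interval 59.8 to 79.7), against 61.4% of all protein-coding genes. Within 500 bp of a transcription start site (TSS) of the gene itself, 10 members (11.4%) had a thresholded summit, against 13.5% of all, and 57 (64.8%) had a pooled one, against 49.9% of all. Members have short windows, with a median of 3097 bp against 4166 bp for all genes. Among the 4161 genes whose windows lay in the members' interquartile range of 2755 to 3752 bp, 13.6% had a thresholded and 50.2% a pooled summit. Within 500 bp of a TSS, 9.66% of the 4161 had a thresholded and 38.6% a pooled summit. No test was made of these differences, since the members were proposed with results of these data known, and the intervals cover counting error only.

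**Figure D1:**
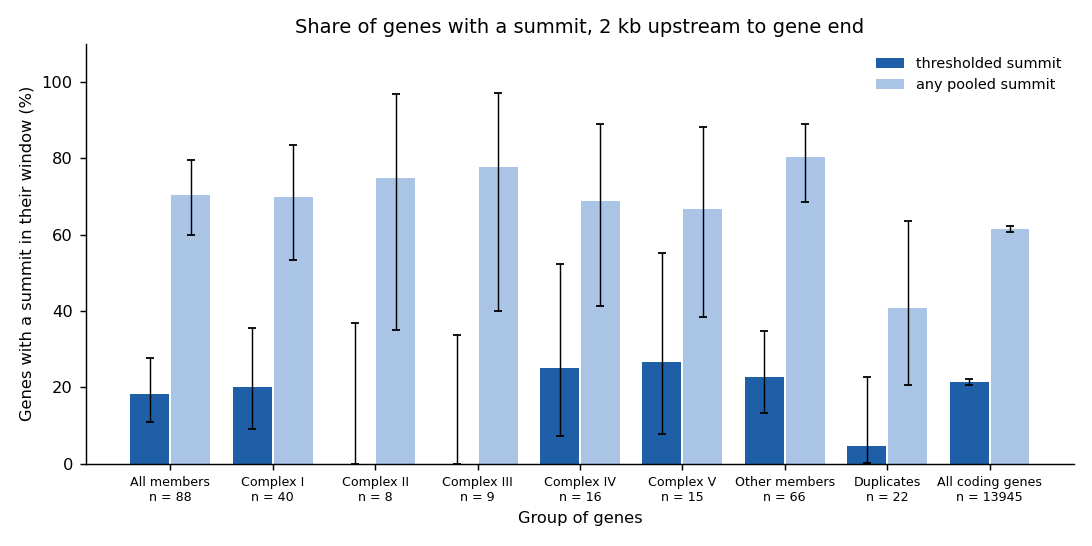
Bars give the share of genes (%) in each group with a thresholded summit (dark) or any pooled summit (light) in its window, which starts 2 kb before the gene, with exact 95% binomial intervals over genes. The members' thresholded share (18.2%) lies near that of all coding genes (21.4%), complexes II and III have none, and duplicates have the lowest pooled share (40.9%).

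By complex, the thresholded counts were 8 of 40 in complex I (20%), 0 of 8 in complex II, 0 of 9 in complex III, 4 of 16 in complex IV (25%) and 4 of 15 in complex V (26.7%), against 21.4% of all protein-coding genes. With so few genes the intervals are wide: 0 of 8 allows up to 36.9% and 0 of 9 up to 33.6%. Pooled summits were found in every complex at between 66.7% (complex V) and 77.8% (complex III) of members. The windows of the members held 19 thresholded and 145 pooled summits, of which 7 fell into the windows of a pair of neighbouring members, COX5B with COX5BL or COX7C with COX7CL. The 19 thresholded summits had a median signal of 175, against 206 for all 3421, and the strongest of them ranked 522.

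**Figure D2:**
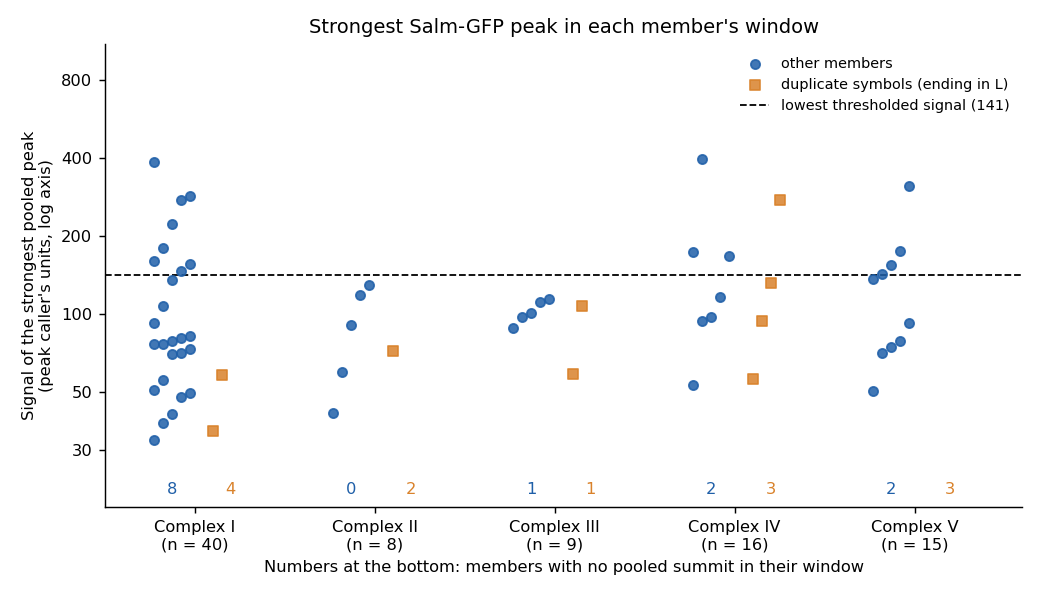
Each point is a member, placed by the signal of the strongest pooled peak in its window (log axis), with duplicates as squares and the dashed line at the lowest thresholded signal, 141. Complexes II and III lie wholly below the line, and the numbers at the bottom count members without any pooled summit, 26 in all.

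The sequences of 81 bases centred on a thresholded summit are shown for members with such a summit within 500 bp of their own TSS. The count of 10 members within 500 bp rests on these sites, while other members were counted through summits farther away. The windows of 7 of these 10 members are given; those of ND-24 and ATPsyngamma, which lie mostly in an untranslated region, and of ND-MWFE are not. They were read from the Release 6 genome (dm6 coordinates) and are given 5′ to 3′ in the direction of the member gene. Capitals mark matches to the motifs searched, which are spelled out or named further on. Only the ATPsynD window has one, the core promoter word known as motif 1, on the opposite strand. The windows of ND-51 and COX5A are rich in A and T, with a GC content of 19.8% and 24.7%, while those of ATPsynC and ATPsynD reach 45.7% and 44.4%.
ND-ASHI, chrX:6679311-6679391, minus strand: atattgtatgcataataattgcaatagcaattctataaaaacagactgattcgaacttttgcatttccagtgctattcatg
ND-51, chr2L:6062805-6062885, minus strand: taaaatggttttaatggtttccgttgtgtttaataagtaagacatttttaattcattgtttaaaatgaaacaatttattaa
ND-42, chr3R:22027567-22027647, plus strand: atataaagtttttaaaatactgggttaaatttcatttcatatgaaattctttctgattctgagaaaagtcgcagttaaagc
COX7B, chr3L:17425358-17425438, plus strand: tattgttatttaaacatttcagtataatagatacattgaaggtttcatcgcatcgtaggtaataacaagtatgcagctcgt
COX5A, chr3R:11819451-11819531, plus strand: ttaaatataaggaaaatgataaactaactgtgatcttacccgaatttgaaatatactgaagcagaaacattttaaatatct
ATPsynD, chr3R:19094884-19094964, plus strand: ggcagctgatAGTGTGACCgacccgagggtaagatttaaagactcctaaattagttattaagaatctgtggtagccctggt
ATPsynC, chr3R:31218570-31218650, minus strand: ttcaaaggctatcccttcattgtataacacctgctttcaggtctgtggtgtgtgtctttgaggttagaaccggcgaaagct

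In complex I, which takes electrons from NADH, 5 of the 8 members with a thresholded summit had it within 500 bp of their own start. The strongest of these 5 peaks was that of ND-ASHI, an accessory subunit. It reached a signal of 385 in the pooled list (X, 6679281 to 6679469), 258 in replicate 1 (rank 481) and 121 in replicate 2 (rank 811). The summit lay 233 bp upstream of ND-ASHI. It lay in an intron of the overlapping Fum1, the gene of the citrate cycle enzyme fumarase, which is transcribed the other way, and 289 bp upstream of an inner TSS of Fum1.

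ND-51, whose product carries the NADH-binding site, and ND-24, a neighbouring iron-sulfur subunit, each had a thresholded summit near an annotated start. ND-51 had a signal of 180 (2L, 6062650 to 6063039), 88 bp upstream of its TSS, with 119 in replicate 1 (rank 2076) and 50.6 in replicate 2 (rank 3980). ND-24 had a signal of 156 (X, 17631958 to 17632347), 64 bp downstream of its TSS in the 5′ untranslated region, with 98.1 in replicate 1 (rank 3030) and 55 in replicate 2 (rank 3411). ND-24 ranked within the strongest 3421 of both replicates, and ND-51 only of replicate 1.

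ND-42, an accessory subunit, sat near the threshold with a signal of 146 (3R, 22027412 to 22027801). Its summit lay 102 bp upstream of its TSS and 127 bp upstream of Cchl, which encodes cytochrome c heme lyase, the enzyme that attaches heme to cytochrome c. Replicate 1 had a peak there of signal 118 (rank 2110), while no replicate 2 peak contained the summit, and the strongest one overlapping the peak ranked 10340. The replicates therefore differed at this site.

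The replicates differed at the summit position, while both had a strong overlapping peak, at ND-MWFE, a small membrane subunit of complex I. Its pooled signal was 286 (2R, 13158413 to 13158592), 141 bp upstream of ND-MWFE, in an intron of the peptidase gene TppII and 80 bp upstream of an inner TSS of it. The peak at this summit ranked 845 in replicate 2 (signal 118) but 23809 in replicate 1 (signal 25.9), although a stronger replicate 1 peak, of rank 1079, overlapped the same pooled peak. The summit itself thus rests on replicate 2, and the wider peak on both.

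The remaining 3 complex I genes were counted through summits away from their own starts. The ND-39 summit (signal 275; 3L, 20493517 to 20493657) lay 1519 bp downstream of its TSS, in an intron, and 111 bp upstream of ZnT77C, a zinc transporter gene; it ranked 1064 and 1060 in replicates 1 and 2. The ND-SGDH summit (160) lay 989 bp upstream, inside RhoGAP68F, and ND-SGDH had a weaker one of signal 98 at 105 bp upstream. ND-15 is annotated with a window of 43305 bp that contains other genes and 26 pooled summits. Its thresholded summits, of signal 223 and 152, lay 29 bp downstream of the start of the glutamine synthetase gene Gs1 and 20 bp upstream of that of CG3164. At a start of ND-15 itself the pooled signal was 78.9, below the threshold.

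Complex II, succinate dehydrogenase, and complex III, the cytochrome bc1 complex, had no thresholded summit but a weaker pooled one at most members. SdhB, the iron-sulfur subunit, came closest to the threshold with a signal of 130 at 59 bp downstream of its TSS; its peak ranked 4196 in replicate 1 and 5256 in replicate 2. SdhC, a membrane anchor, had 119 inside the gene, 867 bp downstream of its TSS, and 100 nearer to its start, at 29 bp upstream of the neighbouring gene Tctp. SdhA, the flavoprotein subunit, had 91.1 at 40 bp upstream of the neighbour cer and only 45.2 at its own TSS. SdhD, the other membrane anchor, had 59.9 at 32 bp upstream. All 5 complex II members without a duplicate symbol, Sdhaf3 with 41.7 included, had a pooled summit within 500 bp of a TSS.

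In complex III the 2 core subunit genes differed in where their summits lay. UQCR-C1 had a signal of 114 at 39 bp upstream of its TSS and 13 bp downstream of that of CycC (ranks 5005 and 6652 in replicates 1 and 2). UQCR-C2 had 111 at 1245 bp upstream, which is 149 bp upstream of the proteasome gene Rpn12, and only 32.4 near its own start. Among the small subunits, UQCR-Q had 101 at 52 bp upstream, UQCR-6.4 97.2 at 35 bp downstream and UQCR-14 88.4 at 39 bp upstream. UQCR-11 had no pooled summit in a window of 7463 bp.

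In complex IV, cytochrome c oxidase, COX7B and COX5A carried a thresholded summit near annotated starts. COX7B had a signal of 173 (3L, 17425203 to 17425592) at 79 bp upstream, with 86.8 in replicate 1 (rank 3826) and 83.7 in replicate 2 (rank 1570). The COX5A summit lay in an intron of the gene, 132 bp downstream of its outermost start and 108 bp upstream of an inner one, and 71 bp upstream of glo, which encodes an RNA-binding protein. Its signal was 167 (3R, 11819296 to 11819685), with 106 in replicate 1 (rank 2599) and 51.9 in replicate 2 (rank 3781). Each was thus within the strongest 3421 of a single replicate, COX7B of replicate 2 and COX5A of replicate 1.

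The strongest peak in any member window was counted for COX7C, with a signal of 398 (2R, 10046283 to 10046514) and ranks of 449 and 659 in replicates 1 and 2. It lay 1974 bp upstream of COX7C, close to the edge of the window and inside the neighbouring gene oys, in an intron. COX7AL2 held 2 thresholded summits, of signal 276 at 1382 bp upstream (2L, 2199252 to 2199436) and 185 at 664 bp upstream (2L, 2193479 to 2193868) of annotated starts, the weaker one in an intron of the gene, and these stayed nearer to COX7AL2 than to any other gene. Near its own start COX7C had 132, at 231 bp downstream of its TSS and 35 bp downstream of that of oys. Other complex IV starts were weaker: COX7A had 116 at 51 bp upstream and COX4 53.5 at 30 bp upstream. COX6B had 97.1 at 57 bp upstream, nearer to CG33932, 39 bp upstream of it. COX5B had 94.2 at 164 bp upstream, nearer to IFT52, 134 bp upstream of it. COX8 had no pooled summit, although replicate 2 alone had a peak of rank 5938 at 83 bp upstream of it.

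In complex V, ATP synthase, ATPsyngamma, the rotating central stalk, and ATPsynD, part of the peripheral stalk, had thresholded summits near annotated starts. The ATPsyngamma summit lay inside the gene, in the 5′ untranslated region, 252 bp downstream of its outermost start and 42 bp upstream of an inner one. Its signal was 175 (3R, 29748716 to 29749105), with 113 in replicate 1 (rank 2289) and 62.9 in replicate 2 (rank 2679). ATPsynD had 143 (3R, 19094729 to 19095118) at 76 bp upstream of its TSS and 19 bp upstream of mRpL55, a mitochondrial ribosomal protein gene. A second ATPsynD summit, of signal 154, lay 16 bp upstream of the kinase gene cdi. Both ATPsynD peaks ranked high in replicate 1 (2508 and 2004) and low in replicate 2 (7920 and 7078).

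ATPsynC, the subunit of the membrane ring, had the weakest thresholded summit of all members, 143 (3R, 31218415 to 31218804), in an intron 441 bp downstream of its nearest TSS, with rank 3745 in replicate 1 and 5043 in replicate 2. ATPsynCF6, of the peripheral stalk, had 311 at 1108 bp upstream (ranks 741 and 905), inside Sec13, and 120 at 122 bp upstream of its own start. ATPsynF lay just below the threshold with 136 at 29 bp upstream and ranked 5720 in replicate 1 but 2724 in replicate 2. ATPsynB (92.4), ATPsynE (70.9) and ATPsynO (74.4) had weak summits between 23 and 43 bp upstream. ATPsynbeta and ATPsynG had none in the pooled list.

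Values on both sides of the threshold were close. Just inside were ATPsynD (154), ND-42 (146) and ATPsynC (143), and just outside ATPsynF (136), ND-23 (135), COX7CL (132), SdhB (130) and SdhC (119). ND-23, an iron-sulfur subunit of complex I, had its summit 134 bp upstream, with rank 3580 in replicate 2 and no replicate 1 peak containing it. The COX7CL summit was that of the neighbouring COX7C and oys, 1764 bp upstream of COX7CL.

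The replicate lists overlapped in part at the stronger sites. Both replicates had a peak containing the summit at 18 of the 19 thresholded summits, and at 3379 of all 3421. Of the 19, 8 were among the strongest 3421 of each replicate. That was not counted for all 3421, so the 8 cannot be read as a trait of the members. Counted on the strongest 3421 peaks of replicate 1 alone, 14 members (15.9%) had a summit in their window, against 21.2% of all protein-coding genes. On those of replicate 2 alone, 12 members (13.6%) did, against 21.3%. Of the 16 members with a thresholded summit, 9 were called in both of these lists, 4 in replicate 1 only, 2 in replicate 2 only and 1, ATPsynC, in neither. No such split was made for all protein-coding genes. Of the 126 weaker summits, 77 (61.1%) were found within peaks of both replicates, against 53.6% of all 26579 below the threshold in the pooled list. The thresholded list equals a cut on the signal of both replicates pooled, so its match with the replicates is no independent measure.

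**Figure D3:**
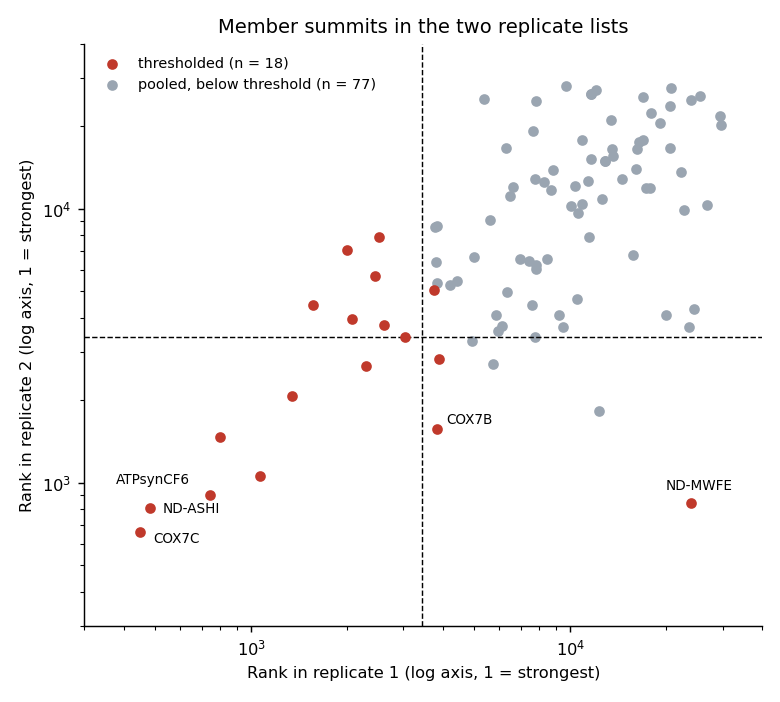
Each point is a pooled summit in a member window, placed by the rank of the peak containing it in replicate 1 and in replicate 2 (log axes, 1 is the strongest), with dashed lines at rank 3421. Of the 18 thresholded summits shown, 8 lie inside both lines. The peak containing the ND-MWFE summit ranks 845 in replicate 2 but 23809 in replicate 1, where a peak of rank 1079 overlaps the pooled peak.

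Where a member had a pooled summit at an annotated start, it tended to lie a short way upstream. The strongest pooled summit within 500 bp had a median position of 42 bp upstream of the nearest TSS of the gene in the 57 members, against 93 bp upstream in 6954 protein-coding genes. It lay between 1 and 60 bp upstream in 21 of 57 members (36.8%), against 14.5% of all such genes, a range chosen after the values were seen. In replicate 1 alone the share was 20% of 55 members against 14.2% of all, and in replicate 2 alone 25% of 56 against 13%. The members' share was thus above that of all genes in each list, by less in either replicate than in the pooled list. The nearest TSS can be an inner one: of the 43 member summits upstream of it, 9 lay inside the gene (20.9%, against 14.9% for all genes), those of ATPsyngamma, COX5A, COX7A, UQCR-Q, ATPsynE and COX4 among them. Counted from the outermost start, an alternative chosen after seeing the data, 13 of 57 members (22.8%) had the summit 1 to 60 bp upstream, against 12.2% of all. These summits were mostly weak, with a median signal of 78.9, against 92.7 for all genes. Of the 57, 47 (82.5%) were below the threshold, against 73% of all such genes. In 140 of the 145 pooled summits the summit was the middle of a peak of 390 bp, which limits how finely it places binding.

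**Figure D4:**
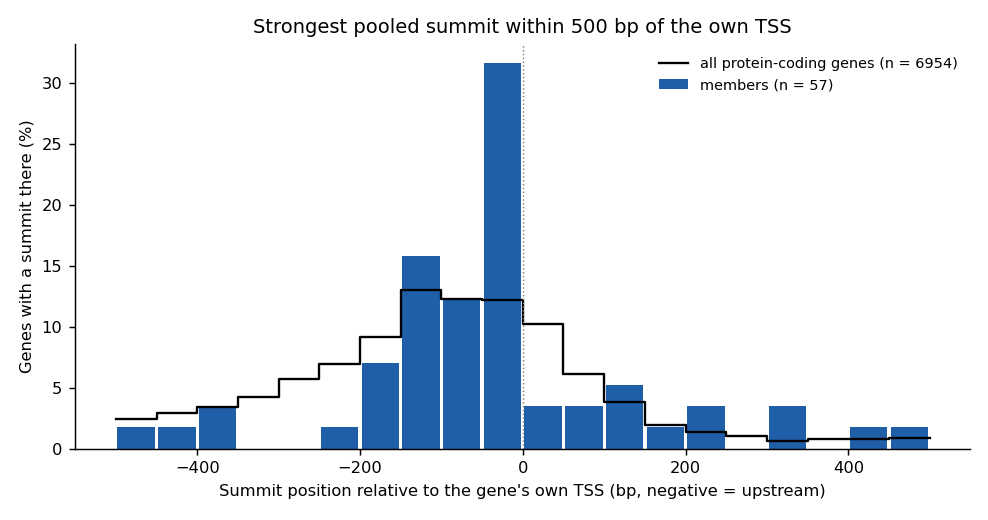
Bars show the share of the 57 members, and the line that of 6954 protein-coding genes, whose strongest pooled summit within 500 bp of their own TSS falls in each 50 bp bin (negative is upstream). Positions are from the nearest annotated TSS, and the members peak just upstream of it, with a median of 42 bp upstream against 93 bp for all genes.

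Of the 57 members with a pooled summit within 500 bp of a TSS, 34 had a close coding neighbour transcribed the other way. Among all protein-coding genes it was 3496 of 6954. For thresholded summits it was 9 of 10 members and 1111 of 1879 genes. Of the 88 members, 44 (50%) had the start of a coding gene on the opposite strand within 1 kb upstream, against 36.2% of all protein-coding genes. The 44 were 41 members without a duplicate symbol and 3 duplicates, so this split overlaps the comparison of duplicates below. Among these head-to-head members 9 of 44 (20.5%) had a thresholded summit within 500 bp of their TSS, against 22.0% of all head-to-head genes. Among the 44 other members 1 did (2.27%), against 8.64% of all other genes. Pooled summits lay within 500 bp of the TSS in 34 of the head-to-head members (77.3%, against 69.2% of all such genes) and in 23 of the others (52.3%, against 38.9%). The 1 thresholded case outside this group was ATPsynC. Of the 19 thresholded summits, 9 were nearer to the start of another gene than to that of the member they were counted for. This was not counted for all thresholded summits. With each summit given only to the coding gene of the nearest TSS, the members' share fell from 18.2% to 10.2%. That of all protein-coding genes fell from 21.4% to 14.2%.

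The duplicates held fewer peaks. Duplicates were the 22 members with a symbol ending in L (or L and a digit) whose remainder begins another member's symbol. Of these 1, COX7AL2, had a thresholded summit (4.55%) and 9 (40.9%) had a pooled one. Of the 66 other members, 15 (22.7%) and 53 (80.3%) did. The shares over all protein-coding genes were 21.4% and 61.4%. Among genes whose windows lay in the members' interquartile range they were 13.6% and 50.2%. Within 500 bp of their own TSS, 5 duplicates (22.7%) had a pooled summit, none with a signal over 58.6, against 52 of the other members (78.8%). It was 49.9% of all protein-coding genes and 38.6% of those with windows in that range. Windows of the duplicates were somewhat shorter, with a median of 2784.5 bp against 3115 bp. By this rule the 66 include COX6CL and ATPsynepsilonL, whose counterparts have other names. COX6AL and COX6AL2 are among the 22 only through each other, as no member is named COX6A.

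Pairs show the difference at single genes. ND-24 had a thresholded summit of 156 and ND-24L no pooled summit. ND-51 had 180, ND-51L1 58.2 at 1757 bp upstream, inside Smurf, and ND-51L2 none. SdhA had 91.1 and SdhAL none, SdhC had 119 and SdhCL none, and UQCR-14 had 88.4 and UQCR-14L none. COX4 had 53.5 and COX4L none. COX5BL and COX7CL were counted only through summits that also lie in the windows of COX5B and COX7C. Not all families showed this difference. COX7AL2 reached 276 at 1382 bp upstream, against 116 for COX7A and 56 for COX7AL. Within 500 bp of its own TSS, however, COX7AL2 had only 42.4. UQCR-11L had 107 at 1235 bp upstream, 93 bp upstream of Acsl, and 42.6 at 191 bp upstream, while UQCR-11 had none. Neither ND-49 nor ND-49L had a pooled summit. In complex V, ATPsynCF6L, ATPsynGL and ATPsynbetaL had no pooled summit, but ATPsynG and ATPsynbeta had none either.

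In all, 26 members had no pooled summit, 13 duplicates and 13 others. The 13 others were ND-18, ND-19, ND-30, ND-49, ND-AGGG, ND-B17, ND-MLRQ, ND-PDSW, UQCR-11, COX6CL, COX8, ATPsynG and ATPsynbeta. ND-49, a core subunit of complex I, and ATPsynbeta, the catalytic subunit of ATP synthase, are the only 2 members on chromosome 4. The share of chromosome 4 genes with a pooled summit was not counted. In the window of ATPsynbeta each replicate alone had a weak peak, of rank 15375 in replicate 1 and 15789 in replicate 2. The 13 duplicates were ND-20L, ND-24L, ND-49L, ND-51L2, SdhAL, SdhCL, UQCR-14L, COX4L, COX6AL, COX6AL2, ATPsynCF6L, ATPsynGL and ATPsynbetaL. Of all 26, 18 had no summit in the full list of either replicate. ND-B17 stood apart: replicate 1 had a peak of rank 2563 (signal 107) at 94 bp upstream of it, but neither replicate 2 nor the pooled list had a summit in its window.

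Other genes of the pathway, taken from lists written by name, held thresholded summits in 13 of 45 genes (against 21.4% of all protein-coding genes) and pooled ones in 40 (against 61.4%). The 21.4% of all protein-coding genes is the share to set beside the thresholded count of each list below. Among 10 subunits and carriers with other names 4 had a thresholded summit. The strongest was counted for Cyt-c-d, a cytochrome c gene of the male germ line, with a signal of 909 (rank 80), but its summit was nearer to CG31808, 139 bp upstream of it. Cyt-c-p, the other cytochrome c gene, had 297 at 944 bp downstream of its TSS, blw, the alpha subunit of ATP synthase, 242 at 179 bp upstream, and RFeSP, the Rieske protein of complex III, 182 at 1826 bp upstream. The adenine nucleotide translocase genes sesB and Ant2 had none above the threshold (98.1 at their shared start).

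Of 11 assembly factors 2 had a thresholded summit, CIA30, which acts on complex I, with 566 at 144 bp upstream, and Cox17, a copper chaperone for complex IV, with 146. The CIA30 summit was nearer to CG7601, 76 bp upstream of it. Coa7 (59.6) and Bcs1 (58.4) had only weaker pooled summits. The citrate cycle list had 6 of 15, against 21.4% of all protein-coding genes. Windows of these 6 ran from 3188 bp (Scsalpha2) to 15903 bp (Ogdh), with 12695 bp for kdn, against a median of 4166 bp for all genes. The list was led by Idh3g, a subunit of isocitrate dehydrogenase, with 781 (rank 118) at 97 bp upstream. Then came Fum1 with the 385 it shares with ND-ASHI, kdn, the citrate synthase gene, with 380 at 1493 bp downstream, and Scsalpha2 with 276. The Scsalpha2 summit lay 1280 bp upstream of Scsalpha2 and was nearer to Dys, 813 bp downstream of the Dys start. mAcon1 (67.5) and ScsbetaA (74.4) had only weaker pooled summits. Of 9 genes for mitochondrial DNA expression and its regulators, mtSSB, the mitochondrial single-stranded DNA-binding protein, alone had one (213 at 247 bp upstream). ewg, the fly relative of NRF-1, had none above the threshold (85.4), and srl, the fly PGC-1 gene, had no pooled summit.

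Motifs were searched on both strands within 50 bp of each summit and in promoters from 250 bases before to 50 after each gene start. The DRE was searched as TATCGATA and the core of motif 1 as GGTCACACT. The E-box was searched as CACGTG, the ETS core as CCGGAA and the NRF-1 core as GCATGCGC. The words GAGAG and AATATT were searched too, as was the NRG element, a palindrome described for nuclear respiratory genes of Drosophila. Matches of different motifs could overlap. The NRG element and the NRF-1 core were in none of the 88 member promoters, against 0.875% and 1.05% of all 13945 promoters. The core of motif 1 was in 17% of member promoters, against 6.05% of all, and AATATT in 43.2% against 30.6%. Member promoters had a mean GC content of 35%, against 39.1% for all.

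At the summits themselves few words occurred. Of the 19 thresholded member summits 1 had the core of motif 1 (5.26%, against 0.672% of all thresholded summits), 1 GAGAG (5.26% against 9.85%), 3 AATATT (15.8% against 19.3%) and none the DRE (0.965% of all). Their mean GC content was 36%, against 33.4% for all thresholded summits. In the strongest pooled summit at each of the 57 member starts the DRE occurred in 4 (7.02%) and the core of motif 1 in 3 (5.26%), against 4.03% and 2.66% at the starts of all protein-coding genes. Of the 22 duplicate promoters none held the DRE, 45.5% held GAGAG and 4.55% the core of motif 1, against 13.6%, 15.2% and 21.2% of the 66 others. Of all 13945 promoters 9.36% held the DRE, 29.7% GAGAG and 6.05% the core of motif 1. These matches describe letters only and say nothing of which factor was there.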

How the data were processed

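The labels describe ChIP-seq with an antibody against GFP on sonicated chromatin of 200 to 800 bp. The authors deposited dm6 peaks of each of 2 replicates, of both pooled, and an IDR-thresholded list, per the file descriptions. A possible control is named in the labels and was not analysed here. For the aligner, peak caller and IDR cutoff, nothing is stated (not given in the sources used here). Signal values deposited for a peak measure its strength and served to rank peaks within a list. The deposited −log10 q-value is tied over all thresholded peaks and was not used. The deposited summit is an offset from the peak start.

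Genes came from Ensembl release 115 (FlyBase 6.54), sequence from Release 6. TSSs were those of all transcripts except transposons, pseudogenes and mature miRNAs. Where windows overlap, a summit was counted for every gene concerned. A replicate's value is that of its strongest peak containing the pooled summit. Members, lists and motifs were chosen with earlier results of these data known. No conditions could be tested, there being 1 group of 2 replicates. The range of 60 bp at the TSS, the count without ND-15 and the shares among genes of like window length were added after the values were seen. Named were all members with a thresholded summit, the 5 nearest below the threshold, all without a pooled summit, and in each pathway list up to 4 with and 2 without a thresholded summit; other genes were named after their values were seen. Of 53 listed pathway symbols 45 were matched (2 by synonym), 1 is a member and 7 were not matched. Window counts were checked on planted summits. Scripts ran under Python 3.11.15 with pandas 2.3.3 and numpy 2.4.6; intervals came from scipy 1.17.1 and figures from matplotlib 3.10.9.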

Additional observations from a re-analysis of the deposited data

How the results depend on the processing

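The count of members with a thresholded summit (16) was 14 on replicate 1 alone (15.9%, against 21.2% of all protein-coding genes). It was 12 on replicate 2 alone (13.6% against 21.3%) and 14 within 1 kb of a TSS (15.9% against 16.1%). It was 17 with any overlap of peak and window (19.3% against 22.2%) and 22 with windows from 5 kb upstream (25% against 28.2%). Without ND-15, an alternative chosen after seeing the data, it was 15. With the stronger 1710 thresholded peaks it was 7 (complex I 4, IV 2, V 1, members without a duplicate symbol 6, all protein-coding genes 1747). Within 500 bp of a TSS it was 10 (complex I 5, IV 2, duplicates 0, all genes 1879). In the gene body it was 7 (complex I 3, IV 2, V 2, members without a duplicate symbol 6, all genes 1420). With each summit given to the gene of the nearest TSS it was 9 (complex I 4, V 2, members without a duplicate symbol 8, all genes 1986). In the order given from the stronger 1710 peaks on, the members' shares were 7.95%, 11.4%, 7.95% and 10.2%. The shares of all genes were 12.5%, 13.5%, 10.2% and 14.2%. Within 1 kb of a TSS complex III had 1 and duplicates 2, and with 5 kb upstream complex II had 1 and duplicates 2. The count with a pooled summit (62) was between 42 and 66 under all alternatives except the gene body. The shares at these ends were 47.7% (strongest 10000 peaks) and 75% (replicate 2 alone), against 42.3% and 65.5% of all genes. In the gene body the count was 29, or 33% against 35.1% (members without a duplicate symbol 28, duplicates 1, all genes 4892). Duplicates with a pooled summit (9) were 5 within 500 bp of a TSS and 4 in the strongest 10000 peaks. The count of members with a summit 1 to 60 bp upstream (21) was 13 when positions were taken from the outermost start. The cause of these shifts was not tested beyond the smaller windows and lists themselves. No paired analysis was possible because there is 1 group. The unknown depth limits what the absence of a peak can show.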
